A study of Mus musculus with 3 samples.

Results

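The 9 genes described here carry the classical MHC class I route of antigen presentation: the heavy chains H2-K1 and H2-D1, their light chain B2m, the peptide transporter subunits Tap1 and Tap2, the loading chaperone Tapbp, the immunoproteasome subunits Psmb8 and Psmb9, and the transactivator Nlrc5. They were chosen by name, and a peak was assigned to a gene when its midpoint lay within the gene body of the GENCODE M21 annotation (mm10). All 9 genes had at least 1 H3K36me3 peak, and together they held 51 of the 120910 peaks, while 11948 annotated genes held a peak in all. The data came from chromatin immunoprecipitation and sequencing of H3K36me3 in Treg cells (CD3+CD4+ and positive for the Foxp3-YFP reporter) sorted at steady state from the spleen or the large intestine (LI) of adult Foxp3Cre-YFP mice on the C57BL/6 background. Cells of 7 mice of each sex were pooled, and each tissue gave 1 library, so no difference between spleen and LI could be tested against the spread between animals. Both groups carried the same Foxp3-driven Cre-YFP allele, which also defined the sort, and no sample without it was analysed. An input library of spleen Treg cells was listed with the series, and its signal was not analysed here.

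H3K36me3 is laid down by Setd2 on nucleosomes that elongating RNA polymerase II has passed, so it covers the bodies of transcribed genes and thickens toward their ends. MHC class I molecules are displayed by nearly all nucleated cells: proteasomes cut cytosolic proteins, TAP carries the peptides into the endoplasmic reticulum, and tapasin helps load them onto a heavy chain paired with beta-2-microglobulin. In lymphocytes Nlrc5 is the main transactivator of the pathway, acting with RFX, CREB/ATF and NF-Y factors at a conserved promoter module, while NF-kB and interferon-activated IRF and STAT factors act at sites nearby.

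The promoters of H2-K1 and H2-D1 are shown first because their peaks reached the start of the gene, so that part of the module lies beside or inside a marked region. The sequences are RefSeq windows of 300 bases on GRCm38.p6, from 250 bases before to 50 after the annotated start, printed along the gene's strand. Capitals mark matches, on either strand, to an NF-kB site (GGGATTCCC), to the 5 letters TGACG found in CREB/ATF sites and to the 5 letters ATTGG of the NF-Y (Y box) site. None of these matches overlapped another.
H2-K1, chr17:34000298-34000597, minus strand: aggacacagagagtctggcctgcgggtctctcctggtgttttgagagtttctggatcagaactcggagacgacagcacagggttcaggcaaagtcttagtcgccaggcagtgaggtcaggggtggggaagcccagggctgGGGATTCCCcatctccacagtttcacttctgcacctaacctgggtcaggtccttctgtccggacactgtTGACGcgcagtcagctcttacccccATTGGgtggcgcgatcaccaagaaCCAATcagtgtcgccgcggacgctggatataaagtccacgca
H2-D1, chr17:35262844-35263143, plus strand: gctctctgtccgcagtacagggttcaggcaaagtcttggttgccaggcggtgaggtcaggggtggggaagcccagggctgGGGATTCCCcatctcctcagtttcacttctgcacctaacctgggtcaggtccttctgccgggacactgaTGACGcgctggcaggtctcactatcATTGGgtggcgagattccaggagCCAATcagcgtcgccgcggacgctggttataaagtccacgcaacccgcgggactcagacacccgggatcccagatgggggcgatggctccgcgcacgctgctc

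Both windows held 1 NF-kB match, 1 TGACG and 2 ATTGG matches in the same order. From the first base of the NF-kB match, TGACG began 69 bases on and the first ATTGG 94 bases on in both genes, and the second ATTGG began 118 bases on in H2-K1 and 117 in H2-D1. Among 32851 RefSeq windows of this length, GGGATTCCC was found in 0.353%, TGACG in 20.8% and ATTGG in 37.4%, so the NF-kB match was the rare one. The H2-D1 window lay wholly under its peak, all 300 bases, because the RefSeq start is downstream of the GENCODE start. Of the H2-K1 window shown, 77 bases were under its peak. A second RefSeq start of H2-K1 gave a window (chr17:34000284-34000583) with the same matches and spacing and 91 bases under the peak.

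Tap1 and Psmb9 are transcribed away from each other, and their windows shared 275 bases. The Tap1 window is shown with the same marks because it lies almost wholly in the gap between the marked bodies of the 2 genes, with 5 of its bases under a peak.
Tap1, chr17:34187306-34187605, plus strand: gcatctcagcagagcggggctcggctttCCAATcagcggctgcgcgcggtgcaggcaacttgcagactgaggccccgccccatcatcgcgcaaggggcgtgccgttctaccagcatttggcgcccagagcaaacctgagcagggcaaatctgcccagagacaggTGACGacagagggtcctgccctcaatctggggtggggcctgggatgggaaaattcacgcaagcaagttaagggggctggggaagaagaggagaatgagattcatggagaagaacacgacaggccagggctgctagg

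The B2m window held 1 interferon-response core (GAAANNGAA, found in 8.56% of windows), 2 TGACG and 1 ATTGG match. The Psmb8 window held 1 palindromic STAT site (TTCNNNGAA, found in 8.30% of windows and read on both strands), and the Tapbp window held 2 ATTGG matches. The B2m, Psmb8 and Tapbp windows had no base under a peak. RefSeq windows were matched for 7 of the 9 genes, without Tap2 and Nlrc5.

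Each value below is the authors' mean RPKM over a peak, scaled so that both libraries had the same total over all peaks. Ratios are log2 of LI over spleen with 0.5 RPKM added to each value, so a negative ratio means less H3K36me3 in LI. The smallest steps in the values correspond to about 29600000 reads in spleen and 38100000 in LI, and from these an approximate 95% counting interval is given in brackets. It covers counting error only, taking each read to cover 200 bases, and not the variation between animals, sorts or immunoprecipitations. Levels are compared between genes only per base of peak, as the mean over the gene's peaks weighted by their length.

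By this measure all 9 genes stood above the median gene, which had 12.3 RPKM in spleen and 12.6 in LI. H2-D1 and H2-K1 were highest in both libraries, at 39.5 and 39.0 RPKM in spleen and at 38.8 and 39.5 in LI. Tap1 followed with 28.9 in spleen and 27.5 in LI, and below it came a run of genes that lay close together. In spleen this run was Tapbp (25.9), Psmb9 (25.2), B2m (23.5), Psmb8 (22.6), Nlrc5 (22.2) and Tap2 (21.0). In LI it was ordered B2m (25.0), Tapbp (24.1), Tap2 (21.5), Nlrc5 (19.6), Psmb9 (18.8) and Psmb8 (17.5). By point value, Psmb9 stood above B2m and Nlrc5 in spleen and below both in LI. Counting error did not separate Psmb9 from B2m in spleen (1.61 RPKM higher [-2.02, 5.25]). Nor did it separate Nlrc5 from Psmb9 in LI (0.71 RPKM higher [-1.61, 3.03]). The step from the heavy chains down to Tap1 was larger than counting error, at 10.2 RPKM [6.11, 14.2] in spleen and 11.3 RPKM [7.88, 14.7] in LI. H2-K1 and H2-D1 were not separated by counting error in either library. Tap1 stood above Tapbp in spleen by 2.99 RPKM [0.07, 5.91], and the neighbours from Tapbp down to Tap2 were not separated. In LI the neighbours that counting error did separate below the heavy chains were Tapbp over Tap2, by 2.55 RPKM [0.38, 4.73], and Tap2 over Nlrc5, by 1.96 RPKM [0.41, 3.51].

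**Figure D1:**
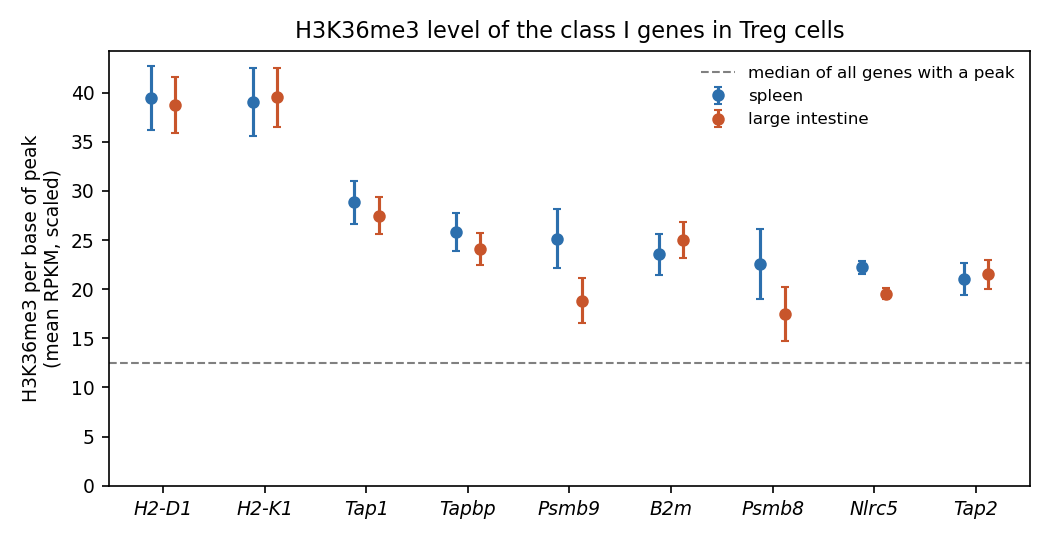
H3K36me3 level per base of peak (length-weighted mean RPKM, scaled to equal totals) of the 9 class I genes in 1 spleen and 1 large intestine library of Treg cells. Points are the library values, bars are 95% counting intervals and the dashed line is the median over 11948 genes, averaged over both libraries. H2-D1 and H2-K1 sit near 39 RPKM in both tissues, and Psmb9 and Psmb8 show the widest gaps between tissues, each lower in large intestine.

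The difference between tissues was small for every gene and tilted toward spleen. With the peaks of each gene summed, 7 of the 9 genes were lower in LI, where 49.4% of all genes with a peak were lower. With the columns as deposited, 5 of the 9 were lower, since H2-D1 and Tap1 turned slightly higher. The median ratio of the 9 genes was -0.17, against 0.005 over all genes, whose middle 50% lay between -0.22 and 0.26. No member passed 1.5-fold in either direction, where 8.65% of all genes were over 1.5-fold lower and 11.7% over 1.5-fold higher. The counting interval lay wholly below 0 for 2 genes, Nlrc5 and Tapbp, where 13.8% of all genes had such an interval, and it lay wholly above 0 for none. Weighted by peak length, 6 genes were lower (47.4% of all genes), the median ratio was -0.07 against 0.02, and the interval was below 0 for 3 genes, Psmb9, Psmb8 and Nlrc5 (15.6% of all genes). Because these are pooled cells, fewer cells carrying the mark and less mark per cell cannot be told apart.

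**Figure D2:**
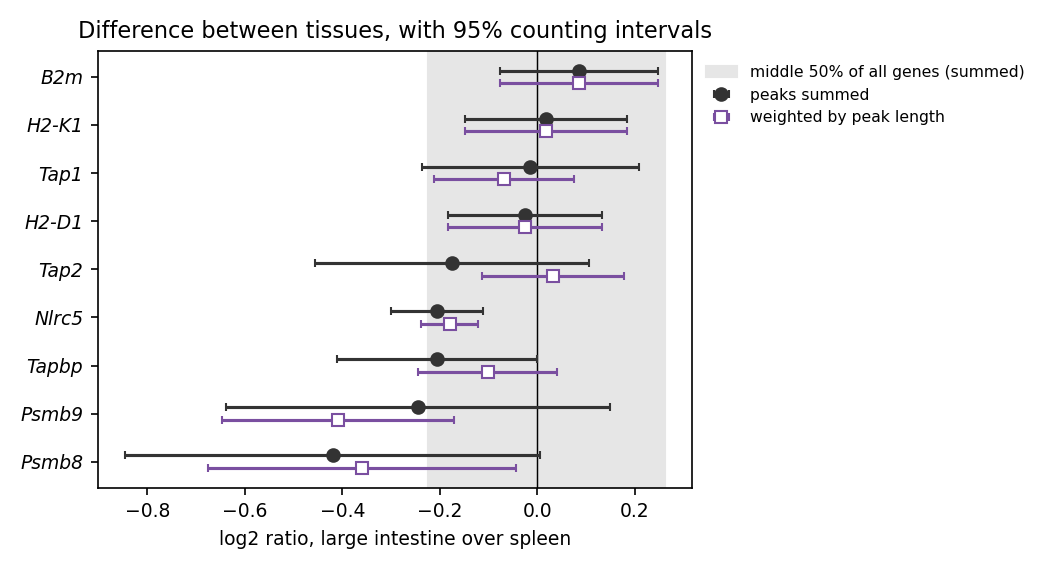
Log2 ratio of H3K36me3, large intestine over spleen, for the 9 genes, with the peaks of a gene summed (filled circles) or weighted by length (open squares). Bars are 95% counting intervals from 1 library per tissue, and the grey band spans the middle 50% of all genes with a peak, from -0.22 to 0.26. Psmb8 (-0.42 summed) and Psmb9 (-0.41 weighted) lie farthest below 0, and B2m (0.09) is highest.

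The heavy chains and B2m, which form the molecule displayed at the cell surface, were each covered by a single long peak, and each was nearly equal in the libraries. H2-K1 had 39.0 RPKM in spleen and 39.5 in LI, a ratio of 0.02 [-0.15, 0.18], over a peak of 4785 bases (chr17:33995590-34000374) that covered the whole gene and ran 427 bases past its end. H2-D1 had 39.5 RPKM in spleen and 38.8 in LI, a ratio of -0.03 [-0.18, 0.13], over a peak of 5247 bases (chr17:35262767-35268013) that covered 99.2% of the gene. These were among the strongest peaks of the whole table: 0.137% of all peaks had a higher mean than that of H2-K1 and 0.141% a higher mean than that of H2-D1. Their ratios differed from each other by 0.04 [-0.19, 0.27]. After a correction for the GC content of the peaks, which was 53.7% in both, the ratios were -0.16 for H2-K1 and -0.20 for H2-D1, and the sign of H2-K1 turned.

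B2m had 23.5 RPKM in spleen and 25.0 in LI, a ratio of 0.09 [-0.08, 0.25] and the highest of the 9 genes. Its peak (chr2:122147797-122155838, 8042 bases) covered 97.9% of the gene and ran 2755 bases past its end. Patl2, annotated on the other strand, spans the whole of B2m, so a ChIP signal there cannot be assigned to 1 of the 2 genes.

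The heavy chains are close copies, and a read that lies in a stretch they share cannot be assigned to 1 of them. The longest run shared by both peaks outside the untranslated regions was 122 bases, of which 41 are coding exon and 81 intron in each gene. It is printed because it is longer than a 75-base read.
H2-K1 chr17:33999190-33999311 (minus strand) and H2-D1 chr17:35264074-35264195 (plus strand): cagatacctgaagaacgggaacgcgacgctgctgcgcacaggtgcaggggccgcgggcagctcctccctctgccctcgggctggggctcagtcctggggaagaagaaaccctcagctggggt
Of all 75-base words in the H2-K1 peak, 6.98% were found elsewhere on the GRCm38 chromosomes, and 4.95% of those in the H2-D1 peak. Over all 51 peaks the share was 1.24%, and 15 peaks had any such word.

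The genes of the loading machinery had ratios near 0 over their longest peaks, and their ratios past 2-fold came from short ones. Tap1, the first transporter subunit, had 3 peaks over 91.0% of its body. Its main peak of 6931 bases had 32.9 RPKM in spleen and 31.0 in LI, a ratio of -0.08 [-0.24, 0.07]. The peak at its start had 13.4 in spleen and 14.8 in LI, and the peak at its end 14.1 and 14.0. Summed, Tap1 had 60.5 RPKM in spleen and 59.9 in LI, a ratio of -0.01 [-0.24, 0.21] whose sign turned positive, to between 0.0002 and 0.03, with the columns left as deposited or scaled by median of ratios or by trimmed mean of M values.

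Tap2, the second transporter subunit, had 5 peaks, summing to 72.8 RPKM in spleen and 64.5 in LI, a ratio of -0.17 [-0.46, 0.11]. Weighted by length the ratio was 0.03 [-0.11, 0.18], so the direction depended on how the peaks were combined. The longest peak, of 7049 bases at the end of the gene, had 23.8 RPKM in spleen and 25.2 in LI. The next, of 2805 bases, had 18.9 in both. The lowest ratio of the gene, -1.62 [-3.82, 0.59], came from a peak of 254 bases in the 5′ untranslated region with 8.83 RPKM in spleen and 2.54 in LI, worth about 5.95 and 2.27 reads. Its midpoint also lay in Gm20496, and without it the summed ratio of Tap2 was -0.05.

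Tapbp, which encodes tapasin, had 5 peaks with a sum of 109.1 RPKM in spleen and 94.5 in LI, a ratio of -0.21 [-0.41, -0.001]. Its strongest peak, of 4566 bases over the end of the gene, had 35.4 RPKM in spleen and 32.7 in LI, a ratio of -0.11 [-0.30, 0.07]. Much of the summed difference came from a peak of 403 bases with 17.5 RPKM in spleen and 6.74 in LI, a ratio of -1.31 [-2.44, -0.19]. That peak and the one before it also had their midpoints in Zbtb22 and lay upstream of the RefSeq start of Tapbp. Without these 2 peaks the ratio of Tapbp was -0.10, and weighted by length it was -0.10 [-0.24, 0.04].

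The immunoproteasome subunits Psmb8 and Psmb9, which replace constitutive catalytic subunits and favour peptides that suit class I grooves, had the lowest ratios of the 9 genes, both summed and weighted by length. Psmb9 had 4 peaks. Its strongest, of 2905 bases (chr17:34182101-34185005), had 31.4 RPKM in spleen and 22.5 in LI, a ratio of -0.47 [-0.73, -0.21]. The other 3, between 234 and 545 bases long, had between 7.04 and 11.4 RPKM in spleen and between 7.56 and 11.0 in LI, and 1 of them, at the start of the gene, was higher in LI. Summed, Psmb9 had 60.1 RPKM in spleen and 50.7 in LI, a ratio of -0.24 [-0.64, 0.15], and weighted by length its ratio was -0.41 [-0.65, -0.17].

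Psmb8 had 2 peaks, both lower in LI. The longer one, of 2096 bases (chr17:34199895-34201990), had 23.8 RPKM in spleen and 18.7 in LI, a ratio of -0.34 [-0.68, 0.007], and its midpoint also lay in Gm20496. The shorter one, of 413 bases, had 16.5 in spleen and 11.3 in LI. The summed ratio of Psmb8 was -0.42 [-0.85, 0.006], and -0.36 [-0.68, -0.04] weighted by length.

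Psmb9, Tap1, Psmb8 and Tap2 lie next to each other on chromosome 17, so their values can be read along 1 stretch. The peaks nearest the starts of Psmb9 and Tap1 were 455 bases apart. Weighted by length, the ratio of Psmb9 minus that of Tap1 was -0.34 [-0.62, -0.06], a difference larger than counting error. Summed, the same difference was -0.23 [-0.68, 0.22]. Psmb8 minus Tap1 gave -0.29 [-0.64, 0.06] weighted by length. Psmb8 and Psmb9 differed from each other by 0.05 [-0.35, 0.44]. With the length-weighted ratio of H2-K1 subtracted, Psmb9 stood at -0.43 [-0.72, -0.14] and Psmb8 at -0.38 [-0.74, -0.02], both lower than the heavy chain. With the peaks summed, both intervals included 0, at -0.26 [-0.69, 0.17] for Psmb9 and -0.44 [-0.90, 0.02] for Psmb8.

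**Figure D3:**
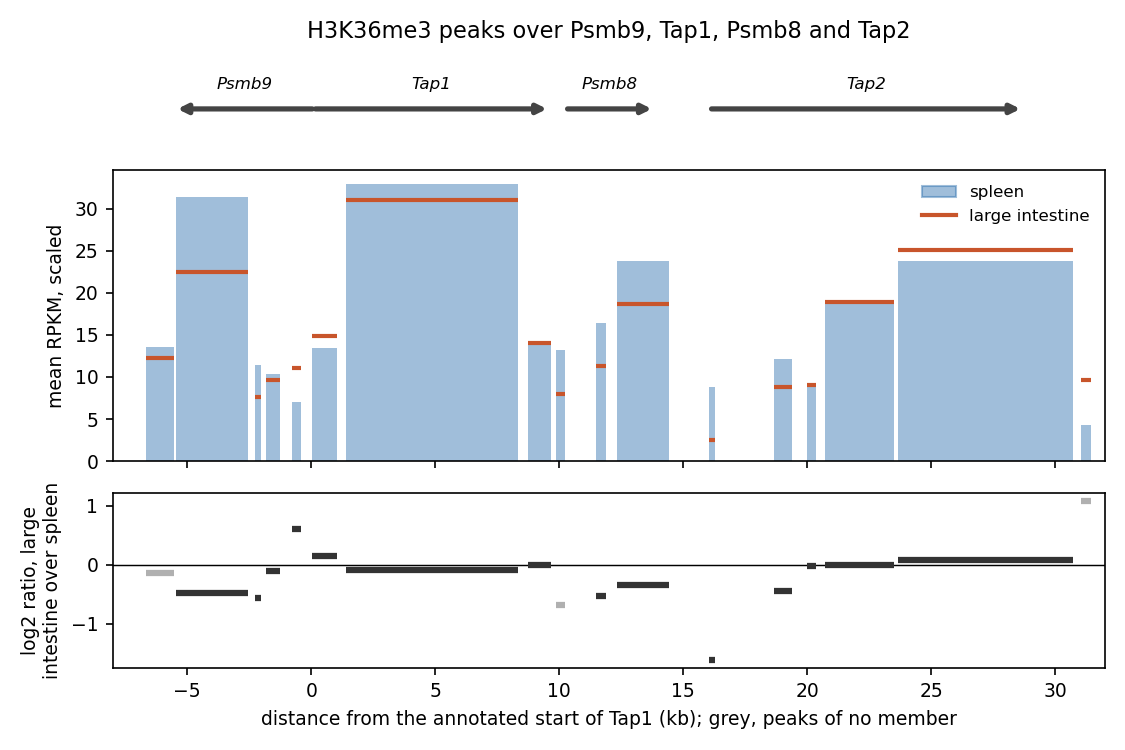
H3K36me3 along the Psmb9, Tap1, Psmb8 and Tap2 stretch, by distance from the start of Tap1 in kb. Arrows show the genes and their direction, blue blocks the spleen value of each peak and orange lines the large intestine value (mean RPKM, scaled to equal totals). The lower panel gives the log2 ratio per peak, with peaks of none of the 9 genes in grey. Large intestine lies below spleen over the main peaks of Psmb9 (22.5 against 31.4) and Psmb8 (18.7 against 23.8) and close to it over those of Tap1 (31.0 against 32.9) and Tap2 (25.2 against 23.8).

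Nlrc5, which transactivates class I genes, had 29 peaks over 75.6% of its 92917 bases (chr8:94434356-94527272). Of these, 24 were lower in LI, where 51.0% of all peaks were lower. They summed to 494.2 RPKM in spleen and 428.6 in LI, a ratio of -0.21 [-0.30, -0.11] or 13.3% less in LI, and -0.18 [-0.24, -0.12] weighted by length. Of its 19 peaks of 1 kb or more, 17 were lower in LI. Peaks of 1 gene share a library and a domain and are not replicates, and these counts describe the gene only.

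The first peak of Nlrc5 began 6590 bases after the annotated start. The gene was divided into 3 parts of equal length. In the first part, 15 peaks covered 44.9% of the sequence with a length-weighted mean of 12.9 RPKM in spleen and 10.5 in LI, a ratio of -0.28. In the middle part, 4 peaks covered 85.9% with 26.9 in spleen and 23.4 in LI, a ratio of -0.20. In the last part, 10 peaks covered 96.2% with 22.4 in spleen and 20.4 in LI, a ratio of -0.13. All 3 parts were lower in LI, and the mark was thinnest near the start.

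The longest peak of the gene, 10301 bases, had 28.0 RPKM in spleen and 23.96 in LI, a ratio of -0.22 [-0.36, -0.08]. The strongest, 9500 bases, had 29.8 in spleen and 27.3 in LI, a ratio of -0.12 [-0.26, 0.01]. The last peak, 7297 bases over the end of the gene, had 20.8 in spleen and 16.3 in LI, a ratio of -0.34 [-0.53, -0.14]. The counting interval was below 0 for 5 of the 29 peaks, where 4.12% of all peaks of any length and 7.75% of those of 1 kb or more had such an interval, and above 0 for none.

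**Figure D4:**
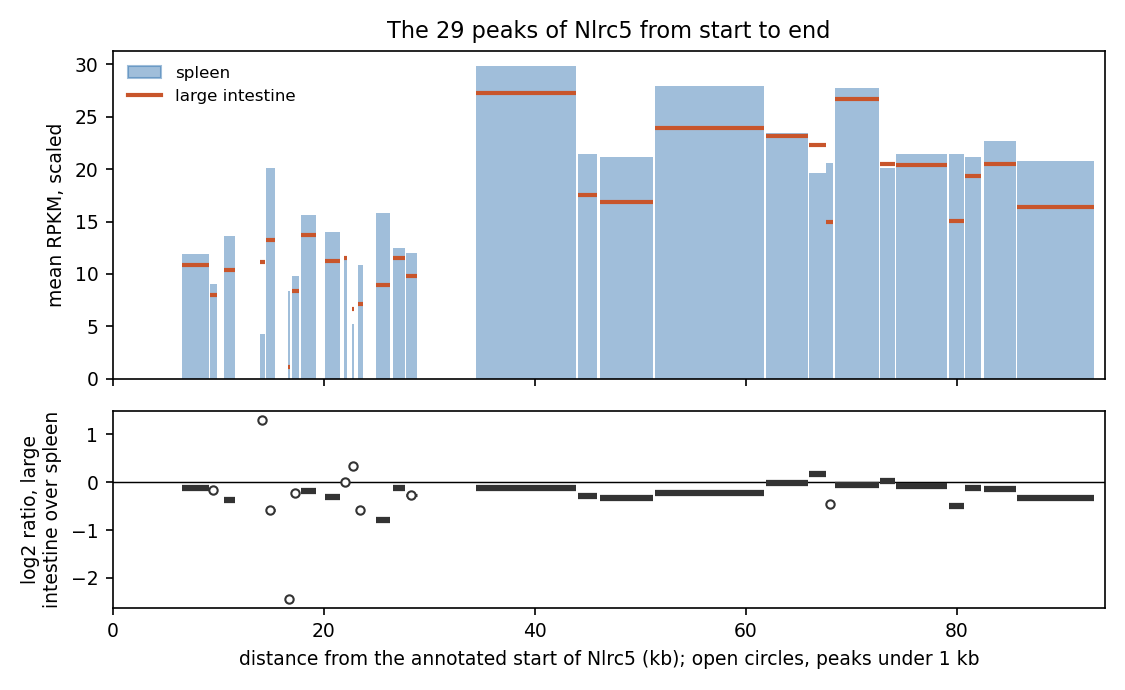
The 29 H3K36me3 peaks of Nlrc5 by distance from its annotated start in kb. Above, blue blocks are the spleen value and orange lines the large intestine value of each peak (mean RPKM, scaled to equal totals). Below, the log2 ratio per peak, large intestine over spleen, with open circles for peaks under 1 kb. Large intestine is below spleen at 24 of 29 peaks, and the peaks farthest from 0 (-2.44 and 1.30) are short ones in the first part of the gene. The next farthest, at -0.79 [-1.36, -0.22], is a peak of 1368 bases.

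The most extreme ratio of any of the 51 peaks, -2.44 [-5.86, 0.99], belonged to an intronic Nlrc5 peak of 200 bases with 8.40 RPKM in spleen and 1.14 in LI, worth about 4.45 reads in spleen and 0.805 in LI. Its sequence is shown because 42.9% of its 75-base words were found elsewhere in the genome. Capitals mark the 128 bases that lie in such a word.
Nlrc5, chr8:94450978-94451177, plus strand: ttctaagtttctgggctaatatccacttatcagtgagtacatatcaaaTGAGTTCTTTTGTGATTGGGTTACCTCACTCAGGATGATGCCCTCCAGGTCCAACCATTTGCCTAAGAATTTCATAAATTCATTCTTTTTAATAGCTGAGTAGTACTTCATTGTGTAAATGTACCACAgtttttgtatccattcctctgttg
The only other peak of the 51 with over 10% of such words was also in Nlrc5, a peak of 969 bases with 27.6%.

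Taken peak by peak, 40 of the 51 peaks were lower in LI and 11 were higher, where 51.0% of all peaks were lower. Outside Nlrc5, 16 of 22 were lower. The median peak ratio was -0.13, against -0.01 over all peaks. The interval was wholly below 0 for 7 of the 51, where 4.12% of all peaks had such an interval, and above 0 for none. Of these 7, 6 were among the 30 peaks of 1 kb or more, a length at which 7.75% of all peaks had such an interval. Over 2-fold lower in LI were 3 peaks (9.6% of all peaks), in Tap2, Tapbp and Nlrc5, and over 2-fold higher was 1 (9.05% of all peaks), in Nlrc5. That one had 4.24 RPKM in spleen and 11.2 in LI, a ratio of 1.30 [-0.06, 2.66], and at 498 bases it was the longest of these 4.

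Long peaks gave the narrower picture. Among the 30 peaks of 1 kb or more, 24 were lower in LI, where 48.6% of all peaks of that length were lower. Their ratios ran from -0.79 to 0.18 with a median of -0.12, against 0.01 for all peaks of that length. The 21 shorter peaks ran from -2.44 to 1.30. The SD of the ratio was 0.21 over the long peaks and 0.77 over the short ones, against 0.39 and 0.88 over all peaks. The 51 peaks had a median length of 1397 bases, against 456 over all peaks, and the midpoint fell in an intron for 45, in a coding exon for 4 and in an untranslated region for 2.

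**Figure D5:**
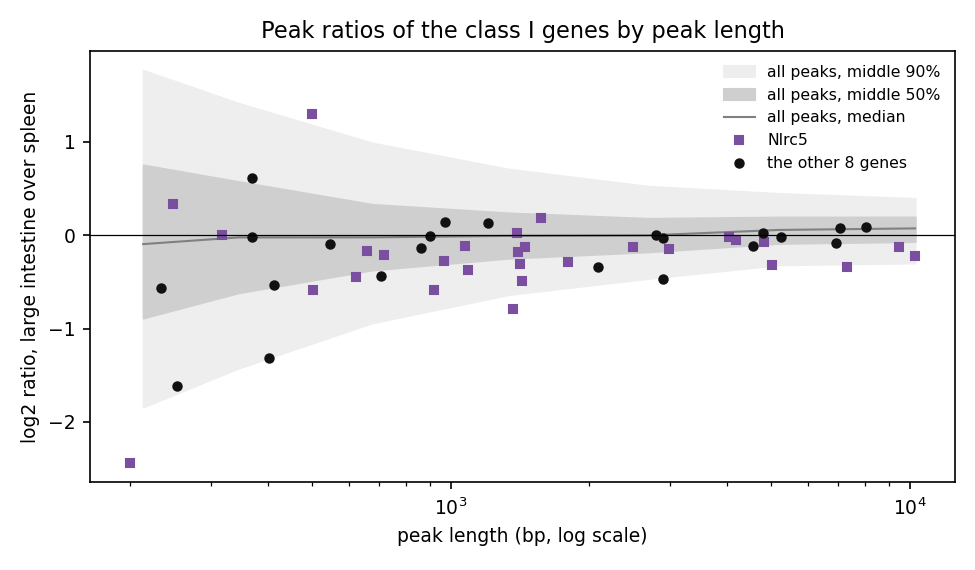
Log2 ratio of each of the 51 peaks, large intestine over spleen, against peak length in bp on a log scale. Squares are Nlrc5 peaks and circles peaks of the other 8 genes, and the grey bands hold the middle 50% and middle 90% of all 120910 peaks by length class. Ratios of the class I peaks spread from -2.44 to 1.30 under 1 kb and from -0.79 to 0.18 at 1 kb or more, where most lie below 0.

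The other genes of the pathway were taken from lists of known members. Among 18 other class I and class I-like heavy chains, 10 had a peak, of which 6 were lower and 4 higher in LI, where 49.4% of all genes were lower. Their median ratio was -0.10, against 0.005 over all genes, and their summed signal was 561.5 RPKM in spleen and 591.0 in LI. H2-T24, a non-classical heavy chain, was the only 1 past 1.5-fold, where 8.65% of all genes were over 1.5-fold lower. It had 56.0 RPKM in spleen and 35.8 in LI, a ratio of -0.64 [-1.04, -0.24]. Weighted by peak length its ratio of -0.33 was within 1.5-fold. The interval lay wholly above 0 for 2 genes, H2-Q6 at 0.35 [0.12, 0.59] and Mr1 at 0.49 [0.09, 0.88], and wholly below 0 for 2, H2-T24 and H2-T10. Over all genes with a peak, 13.8% had an interval wholly below 0, and the share above 0 was not counted. Many of these genes are near-identical copies, so their values are uncertain. The same values over all genes stand beside the other lists: 49.4% lower, 13.8% with an interval wholly below 0 and a median of 0.005. All 5 further loading and trimming genes had peaks, 4 of them lower in LI, with a median of -0.18 and none past 1.5-fold. The interval lay wholly below 0 for 1 of these, Erap1, at -0.28 [-0.48, -0.09]. All 7 other proteasome and activator genes had peaks, 6 of them lower, with a median of -0.17 and none past 1.5-fold. The interval lay wholly below 0 for 1 of the 7, Psmb6, at -0.42 [-0.73, -0.12]. That ratio was as low as the summed ratio of Psmb8 (-0.42), so a low value was not particular to Psmb8 and Psmb9.

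All 13 regulators of class I transcription had peaks, 8 lower and 5 higher in LI, with a median of -0.02. Ifngr1, a subunit of the interferon-gamma receptor, was the only 1 of the 13 regulators past 1.5-fold. It was higher in LI, where 11.7% of all genes were over 1.5-fold higher, while the class I genes as a group tilted lower. Ifngr1 had 61.3 RPKM in spleen and 99.3 in LI, a ratio of 0.69 [0.43, 0.95]. Weighted by peak length its ratio of 0.53 was within 1.5-fold. Ifngr2, the other receptor subunit, stayed within 1.5-fold, with 92.2 RPKM in spleen and 69.2 in LI, a ratio of -0.41 [-0.70, -0.13]. The interval lay wholly below 0 for 2 of the 13 regulators, Ifngr2 and Creb1, the latter at -0.26 [-0.46, -0.05]. It lay wholly above 0 for 1, Ifngr1, and the share of all genes above 0 was not counted.

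The sorted population was checked by its markers. All 6 Treg genes had peaks, 3 of them lower and 3 higher in LI, with a median ratio of 0.02. Their summed signal was 1805 RPKM in spleen and 1452 in LI, and Ikzf2 held 115 of the 159 peaks in that sum. Foxp3 had 134.6 RPKM in spleen and 153.9 in LI, while Ikzf2, with the most peaks of the list, had 1224 in spleen and 837.5 in LI, a ratio of -0.55 [-0.66, -0.43]. Cd3e had a ratio of -0.41 [-0.82, -0.01] and Ctla4 one of 0.59 [0.29, 0.89]. Of 5 genes of class II antigen-presenting cells, 1 had a peak, Cd74, with 50.7 RPKM in spleen and 50.9 in LI, and H2-Aa, H2-Ab1, H2-Eb1 and Ciita had none. The summed signal of B cell genes (3 of 5 with a peak) was 61.2 RPKM in spleen and 52.6 in LI, and Ms4a1 had no peak. Myeloid genes had a peak at 1 of 5, with 14.9 RPKM in spleen and 16.1 in LI. CD8 and NK cell genes had peaks at 1 of 4, Cd8b1, with 21.4 RPKM in spleen and 9.31 in LI. The interval of that ratio, -1.16 [-2.33, 0.01], included 0. Intestinal epithelium genes had peaks at 2 of 5, Epcam and Vil1, and none at Cdx2, Krt8 or Krt20. Their summed signal was 30.4 RPKM in spleen and 58.9 in LI. The ratio was 0.84 [0.20, 1.49] for Epcam and 1.31 [-0.20, 2.82] for Vil1. The part of these cells in the class I values was not tested.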

How the data were processed

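H3K36me3 ChIP-seq was done on sorted Treg cells, with 1 library each of spleen and LI. Per the methods and labels, the authors sequenced 75-base single-end reads, aligned them to mm10, called peaks per tissue with MACS2 against input, merged the peaks with bedtools and deposited the mean RPKM coverage of each merged peak. The processing notes also name FastQC and Bowtie2. Tool versions and any extension of the reads are not given in the sources used here. The deposited RPKM values are described as raw counts but are not whole numbers, so no count test was run.

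Each column was scaled to equal totals over all peaks (their log2 total ratio was 0.05), and log2(RPKM + 0.5) ratios were taken per peak, summed per gene and weighted by peak length. In values of few reads, all products of value and length (11831 in spleen, 12607 in LI) were whole multiples of 1 read in 1 bin of 20 bases, within a tolerance of 0.05 of a step. This gave the depth and the counting intervals. The intervals were tested only on data simulated with the same read cover and counting error, which cannot show whether those assumptions hold. Coordinates matched GENCODE M21 (GRCm38) on all 21 chromosomes. Exons, introns and untranslated regions are those of coding transcripts. With 1 library a tissue, no p-value was computed. Named were the 9 genes, and other pathway genes past 1.5-fold or overlapping a peak of theirs. Also named were Ifngr2, Creb1, Erap1, Psmb6, H2-Q6, H2-T10 and Mr1, chosen after their values were seen. The genes and lists were chosen with earlier results of these data known. Python 3.11.15, numpy 2.4.6, pandas 2.3.3 and matplotlib 3.10.9 were used.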

Additional observations from a re-analysis of the deposited data

How the results depend on the processing

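Each ratio was recomputed under 15 other settings, 3 of them chosen after seeing the data (peaks weighted by length with columns scaled to signal times length, peaks in no other gene, reads covering 75 bases). Of 134 single-gene ratios, 132 moved by less than their counting interval, and 9 had the opposite sign. The 2 that moved further did so after a correction for the GC content of the peaks, to -0.16 for H2-K1 and -0.20 for H2-D1. The median of the 9 genes ran from -0.23 (GC correction) to -0.03 (peaks of 1 kb or more), below that of all genes each time.

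The number of genes higher in LI, 2 of 9, became 4 with the columns as deposited. This number became 1 with the GC correction, or with peaks weighted by length and columns scaled to signal times length. With peaks in no other gene it was also 1, and B2m had no peak left. By median of ratios, by trimmed mean of M values, weighted by length, by the strongest peak or with peaks of 1 kb or more it was 3. The number with a counting interval below 0, 2 of 9, became 5 with the GC correction. As deposited, by median of ratios, by trimmed mean of M values or with peaks in no other gene, this number was 1. With any overlap of peak and gene body, weighted by length under either scaling, or with reads covering 75 bases, it was 3. With peaks of at least 20 RPKM over both libraries or of 1 kb or more it was also 3. The number of peaks higher in LI, 11 of 51, became 17 with the columns as deposited, 13 by median of ratios and 15 by trimmed mean of M values. Why the GC correction moved them was not tested. The deposited columns differ from the main setting only by the scale of the column totals. No paired analysis was possible because each tissue had 1 library. Depth limits short peaks most, as their few reads leave intervals that span several-fold in either direction.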
